A study of Mus musculus with 2 samples.

Results

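Peritubular myoid cells, the flat smooth muscle cells that wrap the seminiferous tubules, were described by droplet-based 3' single-cell RNA sequencing of testes of C57BL/6 mice at postnatal day 13. Members were chosen by their measured UMIs of marker genes. A barcode counted as a member when it held at least 1000 UMIs (unique molecular identifiers, each standing for 1 captured RNA molecule) and at least 500 genes, with at most 20% of its UMIs from mitochondrial genes. Its summed Acta2, Myh11 and Actg2 UMIs had to reach 10 per 10000 UMIs with at least 2 of these 3 genes detected. Barcodes with 3 or more detected pericyte genes, 3 or more UMIs of Ddx4 and Dazl, a Sertoli gene sum (Aard, Cst9, Cst12 and Sox9) of 10 or more per 10000 UMIs, or 10 or more UMIs of Leydig cell enzymes were left out. The rule found 681 members among 10864 cells of the knockout library and 820 among 11232 cells of the control library, 1501 of 22096 cells in all.

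The knockout mice were Psma7 F/-;Stra8-Cre KI/+ and the control mice Psma7 F/+, and each genotype gave 1 testis library. Stra8-Cre is known as a driver of recombination in germ cells, while the null copy of the knockout genotype is present in every cell, myoid cells included. The control genotype names no Cre. How many animals went into a suspension and which exons are floxed were not given in the sources used here. With 1 library a genotype, no test between genotypes was possible, differences have no replicate check, and animal, dissociation, library and genotype cannot be told apart. The 95% intervals given are exact and cover counting error only.

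Peritubular myoid cells contract to move tubule fluid and immotile sperm, and together with Sertoli cells they lay down the basement membrane of the tubule. They develop under desert hedgehog from Sertoli cells, which they receive through the receptor PTCH1, and they secrete GDNF, a growth factor of spermatogonial stem cells. PSMA7 is an alpha-ring subunit of the proteasome core, the chamber that degrades ubiquitin-marked proteins.

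Members held a median of 10068 UMIs and 3707 genes in the knockout library, against 6063.5 UMIs and 2822.5 genes in the control library, so the summed counts were 7053743 and 5986908 UMIs in knockout and control members. Mitochondrial UMIs made up a median of 2.58% in knockout members and 3.53% in control members. Of all cell barcodes, 29 occurred in both libraries, and 1 of these was a member in both. Doublets were not removed. Scrublet, a doublet caller, marked 4 of the knockout members and 5 of the control members at the threshold it chose for the control library, and at its own threshold for the knockout library it marked 0 cells and had not worked there. From barcodes with 10 to 100 UMIs, free RNA could account for at most 3.98% of knockout and 3.46% of control member UMIs.

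The label was checked with Cnn1 (calponin, an actin-binding protein of smooth muscle) and Myocd (myocardin, the coactivator that drives smooth muscle genes), which the rule did not use. Levels are given as UMIs per 1000000 UMIs of a population (CPM). Cnn1 stood at 72.6 CPM in knockout members and 195 CPM in control members, against 0.919 CPM in knockout and 1.06 CPM in control interstitial stromal cells. Myocd stood at 399 CPM in knockout and 283 CPM in control members, against 6.44 and 3.50 CPM in knockout and control stromal cells. After every cell was thinned to 2000 UMIs, Cnn1 was detected in 14.7% of 620 knockout members (12 to 17.7%) and 28.5% of 743 control members (25.3 to 31.9%). Myocd was detected in 35.5% of knockout members and 35% of control members. Without thinning, Cnn1 was found in 32.6% and 55.5% and Myocd in 64.9% and 58% of knockout and control members. In Sertoli cells, which should lack both genes and held a median of 4147 UMIs in the knockout and 5094 UMIs in the control library, the thinned shares were 0.382% and 0.255% for Cnn1 and 0.334% and 0.424% for Myocd in knockout and control. Both genes stood far above that background in members of either library, so the label held against stromal and Sertoli cells. In pericytes the thinned shares were 7.14% and 7.94% for Cnn1 and 19.0% and 19.0% for Myocd, in knockout and control. These 2 genes therefore cannot by themselves set myoid cells apart from vascular smooth muscle. Of 6 vascular smooth muscle markers, the gates used 2. The 6 summed to 67.9 and 65.5 CPM in knockout and control members, against 1620 and 1915 CPM in pericytes.

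**Figure D1:**
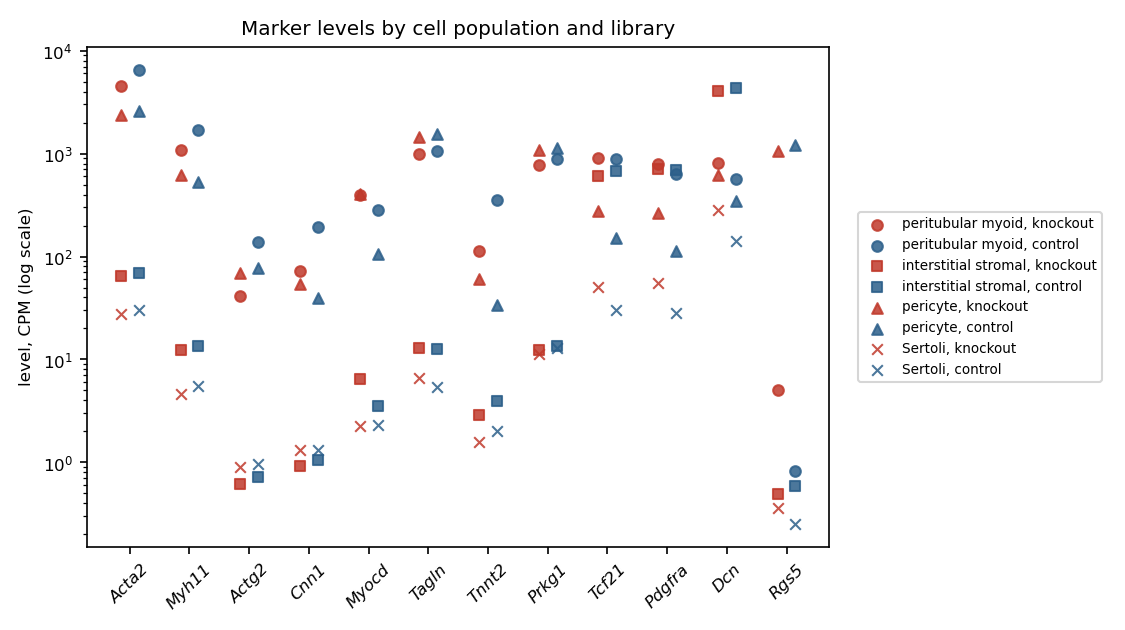
Levels of 12 marker genes in CPM on a log axis, by population (symbol) and library (knockout red and left, control blue and right). Members stood above stromal and Sertoli cells for the genes plotted from Acta2 to Prkg1. Rgs5 lay above 1000 CPM in pericytes and at 5.10 CPM or less in members. Dcn was highest in stromal cells, which were gated on Dcn, Pdgfra and Tcf21, so the gate itself favoured this order. Acta2, Myh11, Actg2 and Rgs5 were also used by the gates.

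The genes that defined the gates are given as a description. Acta2, the smooth muscle alpha actin, stood at 4494 CPM in knockout members and 6514 CPM in control members. Myh11, the smooth muscle myosin heavy chain, stood at 1071 and 1709 CPM, and Actg2, the gamma actin of visceral muscle, at 41.8 and 140 CPM in knockout and control members. All 3 were lower in knockout members, Actg2 most of all, by 1.74 on the log2 scale (knockout over control -1.74). All 3 were detected together in 124 knockout members (18.2%) and 299 control members (36.5%), in cells of unequal depth. Rgs5, the pericyte gene, had 36 UMIs in knockout members, 97.2% of them in 1 cell, and 5 UMIs in control members.

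Members differed from interstitial stromal cells, the fibroblast-like cells between the tubules, by 836 genes at least 2-fold higher in both libraries (5.99% of 13957 genes measured) and 661 at least 2-fold lower (4.74%). The 15 genes with the highest ratio, gate genes left out, included Cnn1, Tagln and Myocd of the smooth muscle program. They also included Prkg1 (the cGMP-dependent kinase that relaxes smooth muscle), Itga8 (an integrin chain), Tnnt2 (a troponin known from heart muscle), Cdh3 (P-cadherin), Prkcb (a protein kinase C), Entpd1 (an ATP-degrading ectoenzyme) and Dner, Sytl2, Sgip1, Fbxl22, Sh3bgr and Fam189a1. Tagln (transgelin) was higher in members than in stromal cells by 6.23 on the log2 scale in the knockout and 6.39 in the control library. Cdh3 was higher by 6.20 and 6.11, and Itga8 by 5.91 and 4.89, in knockout and control. The 10 genes furthest below stromal cells were Frmpd4, Adgrb3, Clec3b, Dpt, Dlk1, Rbfox1, Kctd16, Il1rapl2, Lpl and Prlr. Among them Dlk1 had log2 ratios of -3.65 in the knockout and -4.72 in the control library, and Lpl (lipoprotein lipase) -3.11 and -3.40.

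Members also held genes of the stromal gate, which the member rule did not use. Stromal cells were chosen on Tcf21 and Pdgfra, with Dcn, so their levels of these genes are given as a description. Tcf21, a transcription factor of testis mesenchyme, stood at 903 and 877 CPM in knockout and control members, against 601 and 676 CPM in knockout and control stromal cells. Pdgfra, a platelet-derived growth factor receptor, stood at 797 and 633 CPM in knockout and control members, against 708 and 692 CPM in stromal cells. Against pericytes, of which only 43 in the knockout and 64 in the control library were found, 859 genes were at least 2-fold higher in members of both libraries (7.19% of 11950) and 922 lower (7.72%). Tagln was lower in members than in pericytes by 0.55 on the log2 scale in each library (-0.55 in both), whereas Tcf21 was higher by 1.71 in the knockout and 2.53 in the control. Genes high over stroma did not all set members apart from pericytes. After thinning, Sgip1 was detected in 8.55% and 12.4% of knockout and control members, against 28.6% and 36.5% of pericytes. Prkg1 was detected in 55.2% and 66.2% of members, against 61.9% and 74.6% of pericytes. Cdh3, Prkcb, Dner, Fbxl22, Sytl2, Sh3bgr and Fam189a1 were detected more often in members of both libraries.

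Fewer myoid cells per Sertoli cell were found in the knockout library. Members numbered 9.79 per 100 Sertoli cells in the knockout (9.04 to 10.6) and 21.5 in the control library (20.0 to 23.2), a knockout-over-control fold of 0.455 (0.410 to 0.504). Per 100 interstitial stromal cells they numbered 34.4 in the knockout and 52.0 in the control, a fold of 0.662 (0.597 to 0.734). They were 6.49% of somatic cells in the knockout and 11.2% in the control. As a share of all cells they were 6.27% in the knockout (5.82 to 6.74) and 7.30% in the control (6.83 to 7.80), and this order turned round at a mitochondrial limit of 10%, with 9.27% and 8.93% in knockout and control. The denominators themselves differed, with 6953 Sertoli, 1980 stromal and 368 germ cells in the knockout library and 3806, 1578 and 3900 in the control library. Which of these populations set the ratios was not tested, and the Acta2-based gate counts a cell with less of the gate genes as no member. Some cells met the gate sum with at least 2 gate genes but failed another limit. In knockout and control, 159 and 114 failed the Sertoli limit and 6 and 52 the germ limit. The pericyte limit was failed by 26 and 36 and the Leydig limit by 3 and 1. A further 81 and 54 cells reached the sum with only 1 gate gene. The part of these exclusions in the folds was not tested.

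**Figure D2:**
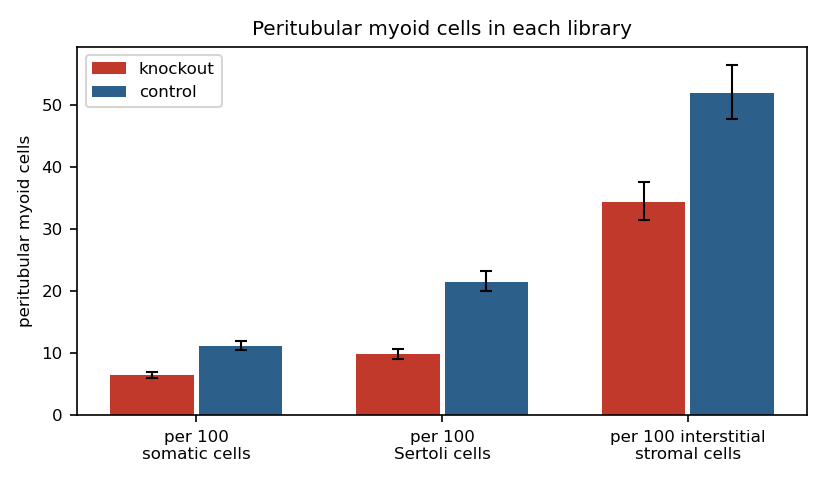
Peritubular myoid cells per 100 somatic, Sertoli and interstitial stromal cells in the knockout (red, left) and control (blue, right) library; bars start at 0 and error bars are exact 95% counting intervals. The knockout bar was lower in all 3 pairs, with 9.79 against 21.5 per 100 Sertoli cells.

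Members formed a range rather than a point. The gate sum had a median of 48.5 per 10000 UMIs in knockout members (quartiles 29.9 and 71.8) and 70.6 in control members (43.1 and 102). Near the threshold, 11 knockout and 6 control members had a sum of 10 to 11, and 19 knockout and 14 control cells that met the rest of the rule had a sum of 9 to 10 and were left out. A sum under 20 was found in 80 knockout members (11.7%) and 52 control members (6.34%). Those cells were rich in the stromal proteoglycan decorin: Dcn stood at 1957 CPM in knockout and 2050 CPM in control members under 20, against 394 CPM in knockout and 357 CPM in control members at 80 and over. Tagln ran the other way, at 230 and 205 CPM under 20 and 2027 and 1564 CPM at 80 and over in knockout and control.

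Within the 4 bins of the gate sum (10 to 20, 20 to 40, 40 to 80, and 80 and over) the libraries differed in some genes in one direction throughout. The log2 ratios of Cnn1, knockout over control, were -1.0, -1.08, -1.03 and -0.71 from the lowest to the highest bin. The lowest rested on 11 UMIs in each library, with an interval (-2.35 to 0.35) that includes 0. Ptch1 was lower in knockout members of every bin, with ratios of -0.58, -1.24, -1.03 and -0.85, and Psma7 likewise with -1.28, -1.07, -1.12 and -1.09. Myocd was higher in knockout members of every bin, with ratios of 1.47, 0.54, 0.75 and 0.50. Tagln also had ratios above 0 in every bin (0.16, 0.59, 0.60 and 0.37), although over all members its ratio was -0.10. Its interval in the lowest bin (-0.22 to 0.55) includes 0. The bins are cut on gate genes that were themselves lower in knockout members, so cells of the same bin need not be alike. Mylk (myosin light chain kinase) had ratios between -0.23 and 0.11 in the bins, against -0.34 over all members.

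**Figure D3:**
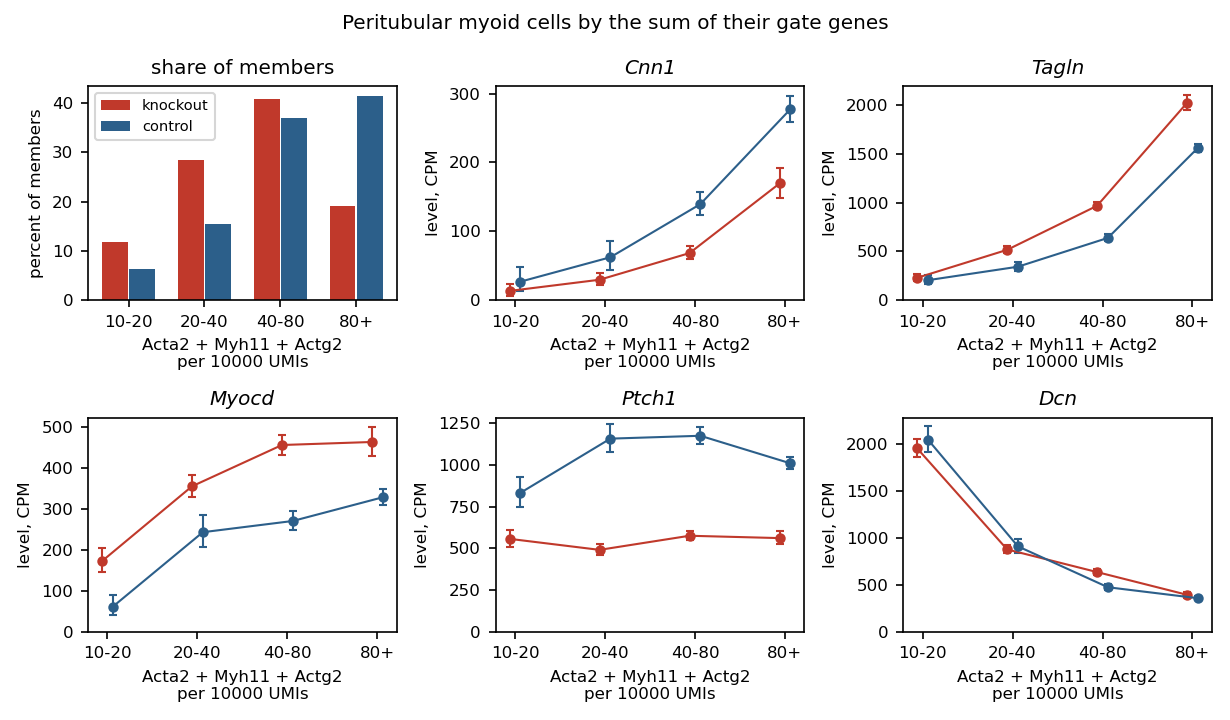
Share of members and the levels of 5 genes in CPM by bin of the gate sum, knockout in red and control in blue; error bars are exact 95% Poisson intervals for counting error. Control members were most often in the highest bin, Cnn1 and Ptch1 lay lower and Myocd higher in knockout members in each bin, and Dcn declined along the bins in both libraries.

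Psma7 (GRCm38 chr2:180036374-180042433, minus strand) checks the genotype labels. It stood at 89.2 CPM in knockout members (629 UMIs) and 206 CPM in control members (1234 UMIs), a log2 ratio of -1.21 (-1.35 to -1.07). The ratio was -1.18 in interstitial stromal cells and -1.38 in Sertoli cells, and whether these populations differ was not tested. The libraries count 3' ends, and a tag outside the deleted exons would still be counted. Of the 31 other proteasome subunits measured in members, 29 had ratios below 0 and 2 above, with a median of -0.20 against -0.06 over all 13174 genes measured, and 0 passed 1.5-fold. The lowest was Psmb3 at -0.58 and the highest Adrm1, a ubiquitin receptor, at 0.11. In stromal cells the median of these subunits was -0.10.

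A gene was called measured when it had at least 30 UMIs in members over both libraries, and was counted as higher or lower past 1.5-fold. Of 13174 measured genes, 704 were at least 1.5-fold higher in knockout members (5.34%) and 817 at least 1.5-fold lower (6.2%), and these counts include low genes whose ratios counting error moves. Among genes with at least 300 UMIs, 195 were higher (2.76%) and 114 lower (1.61%). The lists below are described by their counts and medians beside these shares, and none was tested.

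Contractile genes other than the gate genes were lower in knockout members, most of them by less than 1.5-fold. All 29 listed genes were measured, and 26 had a ratio below 0, with a median of -0.34, against a median of -0.03 for the same genes in stromal cells. Past 1.5-fold, 3 were lower (Cnn1, Hspb6 and Ldb3, 10.3% of the list against 6.2% of all genes; in stromal cells 1 of these genes was lower, where the share over all genes was 3.75%) and 1 was higher (Sorbs2, a cytoskeletal adaptor, at 0.88). Cnn1 (GRCm38 chr9:22099216-22109630, plus strand) had 512 UMIs in knockout and 1165 in control members, a ratio of -1.42 (-1.58 to -1.27). Hspb6, a small heat shock protein of smooth muscle, rested on 23 and 46 UMIs in knockout and control, and Ldb3, a Z-disc adaptor, on 52 and 74. Tpm2 (beta tropomyosin) stood at 738 CPM in knockout and 1081 CPM in control members (-0.55), and Myl9, the regulatory myosin light chain, at 1296 and 1869 CPM (-0.53). Myl6, the essential light chain, stood at 1706 and 2258 CPM (-0.40), and Mylk at 794 and 1003 CPM (-0.34), in knockout and control. Tagln (982 and 1054 CPM), Tpm1 (1599 and 1721 CPM) and Cald1 (caldesmon, 1224 and 1177 CPM) had ratios of -0.10, -0.11 and 0.06. With control members weighted to the knockout spread over the 4 gate bins, an alternative chosen after the data were seen, the median of the list was -0.12.

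Serum response factor, which binds the CArG box, and myocardin together drive smooth muscle genes. Promoters of the contractile and gate genes were searched on both strands for an exact CArG box in windows of 300 bases, 250 before to 50 after a RefSeq start (GRCm38.p6). Of 32 listed genes 27 matched the RefSeq table, and 4 of them held a box (14.8%), against 1.81% of all genes in it. They were Fhl1, Ldb3, Myl6 and Myl9. No exact box was in the windows of Acta2 and Cnn1, which says nothing of binding by the factor. The 250 bases before the start are shown for the pair of myosin light chains, the most abundant of the 4, and for Ldb3, the one lower past 1.5-fold; capitals mark the CArG box. The Myl9 stretch is chr2:156775214-156775463 on the plus strand, and its box starts 161 bases before the start. The Myl6 stretch is chr10:128493010-128493259 on the minus strand, and its box starts 50 bases before the start. The Ldb3 stretch is chr14:34588608-34588857 on the minus strand, and its box starts 109 bases before the start.
Myl9: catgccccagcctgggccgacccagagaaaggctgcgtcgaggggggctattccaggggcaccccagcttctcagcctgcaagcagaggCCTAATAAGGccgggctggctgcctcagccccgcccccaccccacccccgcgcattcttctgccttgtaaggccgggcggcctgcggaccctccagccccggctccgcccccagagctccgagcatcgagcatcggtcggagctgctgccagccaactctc
Myl6: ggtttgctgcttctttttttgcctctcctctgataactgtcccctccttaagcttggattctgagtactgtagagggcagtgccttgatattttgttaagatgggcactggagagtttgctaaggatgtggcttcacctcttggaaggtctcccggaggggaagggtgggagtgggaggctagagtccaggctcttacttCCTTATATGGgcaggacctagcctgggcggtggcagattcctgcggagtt
Ldb3: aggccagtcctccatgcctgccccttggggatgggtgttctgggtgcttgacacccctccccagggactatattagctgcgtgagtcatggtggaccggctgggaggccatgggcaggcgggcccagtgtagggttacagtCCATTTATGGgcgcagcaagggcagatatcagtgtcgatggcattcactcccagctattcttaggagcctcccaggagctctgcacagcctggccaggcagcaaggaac
The 3 genes with these promoters had log2 ratios of -0.53, -0.40 and -0.74 in members, and Fhl1, a LIM-domain protein of muscle, had -0.50 (-1.16 to 0.14, an interval that includes 0) on 39 and 47 UMIs in knockout and control.

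As a list, the regulators of this program had no common direction, with 9 ratios above 0 and 10 below. Of 19 measured regulators, 2 were past 1.5-fold higher and 0 lower, with a median of -0.00 (2 of 19, 10.5%, against 5.34% of all genes). Myocd had 2814 UMIs in knockout and 1694 in control members, a ratio of 0.50 (0.41 to 0.58). In stromal cells, where its level was far lower, its ratio was 0.87 (0.43 to 1.35). Klf4, a repressor of smooth muscle genes, stood at 319 and 173 CPM in knockout and control (0.88), and Gata6 at 9.36 and 6.01 CPM (0.63). Srf, the serum response factor, had 108 and 136 UMIs and a ratio of -0.57 (-0.95 to -0.19). Carmn, a smooth muscle long noncoding RNA, stood at 200 CPM in knockout and 469 CPM in control members, a ratio of -1.23 (-1.32 to -1.14) against 0.07 in stromal cells. Of 29 genes of calcium and cGMP signalling and related regulators of muscle tone, 3 were higher past 1.5-fold and 0 lower, with a median of 0.06. They were the store-operated channel Orai1 (0.90), the ryanodine receptor Ryr2 (0.78) and the cation channel Trpc6 (1.06, on 40 and 16 UMIs in knockout and control). Cacna1c, the L-type calcium channel, had the lowest ratio of those measured at -0.52. Prkg1 stood at 773 and 878 CPM in knockout and control members (-0.18).

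Summed over members, most interstitial matrix genes had ratios above 0, while the median member held about the same matrix total in both libraries. Of 33 measured interstitial matrix genes, 27 had ratios above 0, with a median of 0.34 against -0.13 in stromal cells, and 8 were higher past 1.5-fold (24.2%, against 5.34% of all genes) and 0 lower. Thbs1 (thrombospondin) stood at 31.3 CPM in knockout and 11.7 CPM in control members (1.42), Tnc (tenascin) at 6.24 and 2.67 CPM (1.19), and Lox, the collagen crosslinking enzyme, at 58.7 and 28.9 CPM (1.02). Loxl2, Col14a1, Lum, Col12a1 and Ogn were the other 5, between 0.66 and 1.01. Col1a1 stood at 1798 and 1395 CPM (0.37), while Eln (elastin) stood at 1082 and 1526 CPM (-0.50), in knockout and control. Per cell, the list summed to a median of 87.1 UMIs per 10000 in knockout members (quartiles 66.4 and 113) and 88.6 in control members (66.7 and 112). At the 95th percentile it summed to 363 in knockout and 196 in control members. Stromal marker genes in members summed to 4445 CPM in the knockout and 3579 CPM in the control library, with none of the 8 genes at 0, and the part of that difference in the matrix values was not tested. In the gate bins, Col1a1 was lower in knockout members below a sum of 40 (-0.46 and -0.36) and higher above it (0.61 and 0.59). Weighted to the knockout spread of the gate sum, the median of the list was 0.20.

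The tubule basement membrane list was mixed. Of 25 measured genes 15 had ratios above 0, with a median of 0.21, and 3 were higher past 1.5-fold and 0 lower (12%, against 5.34% of all genes). Fras1, an epithelial basement membrane protein, had 132 UMIs in knockout and 41 in control members (1.44), Col15a1 1018 and 498 UMIs (0.79) and Col18a1 98 and 51 UMIs (0.70). Among the collagen IV chains, Col4a1 stood at 857 and 648 CPM in knockout and control (0.40), whereas Col4a3 stood at 1226 and 1522 CPM (-0.31) and Col4a4 at 1899 and 2171 CPM (-0.19). Col4a1 kept its direction in every gate bin, with ratios from 0.43 to 0.51. The laminin chains Lama2 (0.35) and Lamb2 (-0.55) lay on either side of 0. Of 16 proteases and inhibitors, Plat, tissue plasminogen activator, was higher (1.01) past 1.5-fold and Plau, urokinase, lower (-0.83), with 65.9% of its control UMIs in 1 cell. The direction of Plau turned to 0.81 at a gate sum of at least 20 and to 0.69 without the members that passed the endothelial or macrophage gate. Among 23 integrin and adhesion genes the median was -0.02, with Tns1, a focal adhesion protein, lower at -0.65 as the only one past 1.5-fold. Itga8 stood at 0.38 in members.

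**Figure D4:**
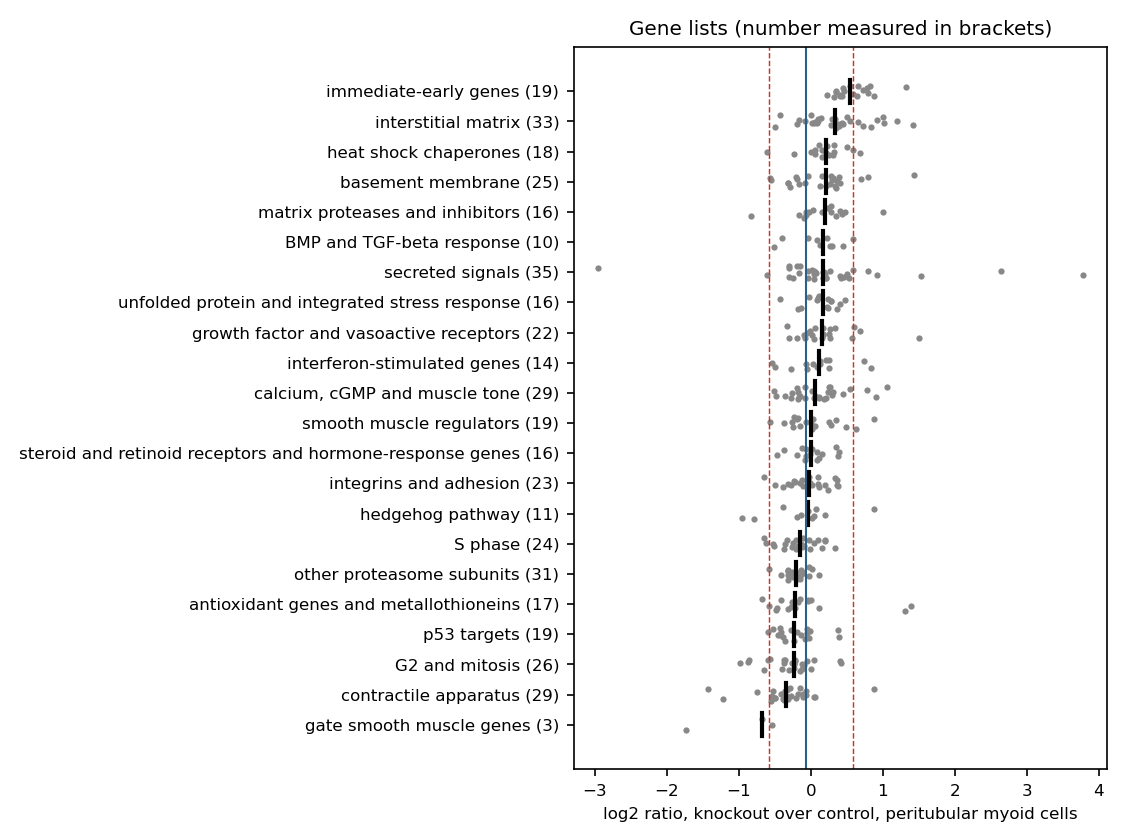
Log2 ratios, knockout over control, of the measured members of 22 gene lists in peritubular myoid cells; grey points are genes, black bars list medians, the blue line the median of all genes (-0.06) and dashed red lines 1.5-fold. Immediate-early genes lay highest, and the contractile and gate lists lowest.

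In the hedgehog pathway, Ptch1 and Hhip were lower in knockout members. Ptch1 (GRCm38 chr13:63508328-63573598, minus strand), both receptor and target of hedgehog, had 3875 UMIs in knockout and 6380 in control members, 549 and 1066 CPM, a ratio of -0.96 (-1.01 to -0.90) against -0.10 in stromal cells. Hhip, a decoy for hedgehog ligands and also a target, had 965 and 1419 UMIs (-0.79) against 0.24 in stromal cells. These were 2 of 11 measured pathway genes (18.2%, against 6.2% of all genes). Gas1, a coreceptor, was the 1 gene higher past 1.5-fold, at 184 and 99.7 CPM in knockout and control (0.89). The transcription factors Gli1 (-0.13), Gli2 (0.05) and Gli3 (0.07) and the signal transducer Smo (-0.04) lay near 0, and the median of the list was -0.04. The ligand Dhh, made by Sertoli cells, stood at 117 CPM in knockout and 74.6 CPM in control Sertoli cells, a ratio of 0.64. An exact GACCACCCA, the GLI motif, on either strand was in 0 of 8 hedgehog genes matched to the promoter table, against 0.289% of all genes. With so rare a motif and so few genes, this search cannot tell the list from other genes. It says nothing of binding by GLI factors. No sequence of them is shown. Id3, a target of BMP signalling, was the 1 of 10 measured BMP and TGF-beta response genes past 1.5-fold, at 979 and 651 CPM in knockout and control (0.59).

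Secreted signals and receptors varied gene by gene. Of 35 measured secreted signals 6 were higher past 1.5-fold and 2 lower, with a median of 0.18. Gdnf, the stem cell factor, had 156 UMIs in knockout and 164 in control members, 22.1 and 27.4 CPM, a ratio of -0.31 (-0.63 to 0.02), an interval that includes 0. Csf1, a macrophage growth factor, stood at 44.7 and 67.8 CPM (-0.60). Bmp2 had 107 and 31 UMIs (1.53), Cxcl1 497 and 222 (0.92) and Inhba, an activin chain, 266 and 130 (0.79), in knockout and control. The most extreme ratios came from few cells. Ccl11 had 40 UMIs in 4 knockout members and 2 UMIs in 2 control members (3.78, interval 2.14 to 7.18), and Il6 had 75% of its 40 knockout UMIs in 1 cell. Ccl2 had 9 and 62 UMIs (-2.95), with 85.5% of the control UMIs in 1 cell. Cxcl12, at 99.8 and 87.9 CPM, and Kitl, at 65.1 and 61.6 CPM, had ratios of 0.18 and 0.08. Of 22 receptors 3 were higher past 1.5-fold and 0 lower: Igf1r (0.60, the insulin-like growth factor receptor), Ptger4 (0.68, interval -0.06 to 1.49) and Avpr1a, the vasopressin receptor, which rested on 48 and 14 UMIs (1.51). Ednra, the endothelin receptor, stood at 360 and 350 CPM in knockout and control (0.04). None of 16 measured steroid and retinoid genes passed 1.5-fold, with a median of -0.00. Esr1, the estrogen receptor, stood at 157 and 121 CPM in knockout and control members (0.38).

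Members were dividing in both libraries. After thinning to 2000 UMIs, 47 of 620 knockout members (7.58%, 5.62 to 9.95) and 51 of 743 control members (6.86%, 5.15 to 8.93) held at least 2 UMIs of 10 division genes. With 1 library a genotype, no difference between genotypes is read from these shares. Unthinned, the shares were 19.4% and 17% in knockout and control. In stromal cells the thinned shares were 8.57% and 6.15%, and in Sertoli cells 9.43% and 3.99%, in knockout and control. Genes of G2 and mitosis nevertheless summed to 715 CPM in knockout and 835 CPM in control members, with 22 of 26 ratios below 0 and a median of -0.24, against a median of 0.49 for the same genes in stromal cells. In members 5 of them were lower past 1.5-fold (19.2%, against 6.2% of all genes). They included Ccnb1, cyclin B, with 81 and 136 UMIs (-0.98), Cdc20 (-0.88) and Cenpf (-0.86), while Top2a was 0.40. Of 24 S phase genes 18 were below 0, with a median of -0.15 that ranged from -0.33 to 0.23 over the alternatives run, so its direction was not stable, against -0.79 to -0.03 for the G2 and mitosis list. Among genes the rule did not use, Cnn1 stood at 81.0 CPM in dividing and 71.3 CPM in other knockout members, and at 178 CPM in dividing and 196 CPM in other control members, with intervals of both ratios that include 0. Myocd stood at 408 CPM in dividing and 400 CPM in other knockout members, and at 234 CPM in dividing and 291 CPM in other control members. Tagln was lower in dividing than in other members by a log2 ratio of -0.14 in the knockout and -0.88 in the control library. The gate gene Myh11, given as a description, had ratios of -0.41 and -0.34 in knockout and control.

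Immediate-early genes, which cells switch on within minutes of a stimulus, were higher in knockout members. All 19 immediate-early genes had ratios above 0, with a median of 0.55 against 0.33 in stromal cells and 0.95 in Sertoli cells, and 9 were higher past 1.5-fold (47.4%, against 5.34% of all genes). For 16 of the 19 the ratio was larger in Sertoli cells than in members. In stromal cells 1 of the 19 was higher past 1.5-fold, where the share over all genes was 5.13%. Klf2 stood at 863 and 344 CPM (1.33), Junb at 3706 and 2125 CPM (0.80), Zfp36, which marks mRNAs for decay, at 1059 and 596 CPM (0.83), and Fos at 3470 and 2371 CPM (0.55), in knockout and control. Such genes respond to tissue dissociation in general, and the part of that in these values was not tested. Heat shock chaperones had a median of 0.22, with 16 of 18 above 0 and 2 higher past 1.5-fold, Dnajb1 (0.69) and Hspa8 (0.59), while Hspb1 was lower (-0.61). Hspa1a (0.32) and Hspa1b (0.22) are near-identical copies and their counts are uncertain. Metallothioneins stood apart in their list: Mt1, a metal-binding protein, stood at 842 and 321 CPM (1.39) and Mt2 at 97.4 and 39.1 CPM (1.32), whereas 14 of the 17 genes were below 0 and Nqo1 was lower at -0.68. Of 19 p53 targets 17 had ratios below 0, with a median of -0.23, and Trp53inp1 (-0.59) was the 1 past 1.5-fold. Unfolded protein response genes had a median of 0.17 with 0 of 16 past 1.5-fold. Of 14 interferon-stimulated genes 2 were higher past 1.5-fold, among them Oasl2, with 51 UMIs in knockout and 24 in control members (0.84).

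At the ends of the range, 12 genes on either side were named from those reaching 20 CPM in the library where they were higher. They were chosen by these same ratios, which are given as a description. The highest was Nppc, a natriuretic peptide, with 624 UMIs in 64 knockout members and 66 UMIs in 23 control members (2.99, interval 2.64 to 3.39). Tafa2, a secreted neurokine-like protein, stood at 183 and 39.8 CPM (2.20), Slc10a6, a steroid sulphate carrier, at 89.2 and 27.1 CPM (1.72), and Dlk1 at 196 and 65.1 CPM (1.59). Rasd1, a small GTPase, stood at 85.8 and 26.6 CPM (1.69), Has1, a hyaluronan synthase, at 21.3 and 6.51 CPM (1.69), and Frmpd4 at 20.8 and 4.68 CPM (2.14). Ano3 stood at 49.1 and 13.9 CPM (1.82), against -1.58 in stromal cells. A large share of the UMIs came from 1 cell for 3 of the 12: Trmt61b (2.50, 29.1% of knockout UMIs), Tafa1 (1.80, 42.4%) and Ndc80 (1.77, 27.2%).

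At the low end, Tnnt2 stood at 114 CPM in knockout and 353 CPM in control members, a ratio of -1.63 (-1.75 to -1.52) against -0.47 in stromal cells. Kcnip1, a potassium channel partner, stood at 110 and 313 CPM in knockout and control (-1.51), and its ratio in stromal cells was -4.31. Sapcd1 (29.2 and 72.3 CPM, -1.31), Rasl12 (-1.38), Car14, a carbonic anhydrase (-1.55), and Epha8, an ephrin receptor (-1.54), were also among the 12 lowest with Cnn1, Carmn and Psma7. Cxcl2 (-2.79) had 93.3% of its control UMIs in 1 cell and turned to 0.81 and 1.05 under the same alternatives that turned Plau, and Tnf (-1.98) 38.4%. Sh3bgr, named for its enrichment over stroma, was lower at 119 and 259 CPM (-1.13).

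**Figure D5:**
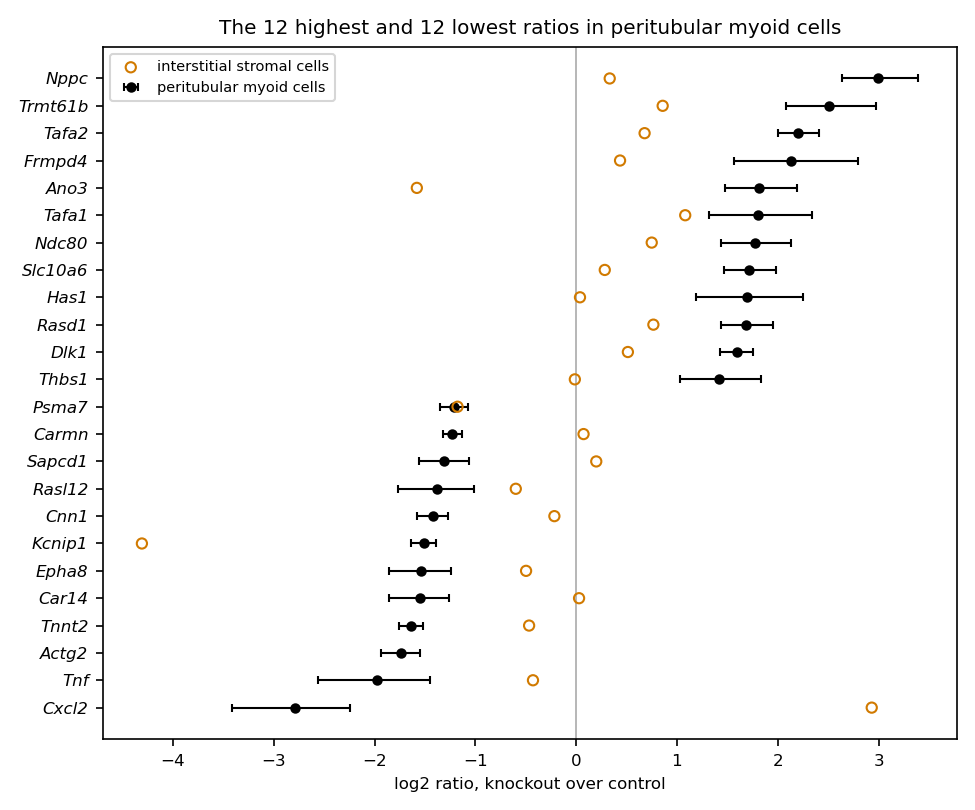
Log2 ratios, knockout over control, of the 12 highest and 12 lowest named genes in peritubular myoid cells (black, exact 95% counting intervals) with the ratio in interstitial stromal cells (open orange). Nppc was highest at 2.99, and most stromal ratios lay closer to 0, with Kcnip1 at -4.31 and Cxcl2 (whose sign in members turned under 2 alternatives) and Ano3 on the other side of 0.

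Of 829 measured genes enriched at least 2-fold in members over stroma, 81 were higher in knockout members (9.77%) and 98 lower (11.8%), with a median of -0.10. Of 420 genes enriched in stroma over members, 83 were higher in knockout members (19.8%) and 14 lower (3.33%), with a median of 0.22. Over all 13174 measured genes, 5.34% were higher and 6.2% lower, with a median of -0.06. Since the enriched sets used both libraries, these shares are a description.

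Markers of other cell types in members differed between libraries. The 11 germ cell markers summed to 7.66 CPM in knockout and 98.4 CPM in control members, and Tex101, Stra8, Dmrtb1 and Prss50 were at 0 in knockout members, where 3 counts would be 0.425 CPM. Sertoli markers summed to 358 and 311 CPM, Leydig markers to 16.4 and 10.9 CPM, endothelial markers to 78.7 and 59.5 CPM, macrophage markers to 31.8 and 40.8 CPM and pericyte markers to 166 and 191 CPM, in knockout and control. Red blood cell genes summed to 10.6 CPM in knockout and 220 CPM in control members, and 99.3% of the Hbb-bs UMIs of control members came from 1 cell. The rule used 2 of the 11 germ, 4 of the 11 Sertoli, 4 of the 6 Leydig and 6 of the 9 pericyte markers. In free RNA of knockout and control, germ markers stood at 149 and 2856.5 CPM and Sertoli markers at 7130 and 3545 CPM. Leydig markers stood there at 420 and 153 CPM, endothelial at 146 and 108 CPM and pericyte at 69.0 and 73.1 CPM. Macrophage markers (274 and 170 CPM) and red blood cell genes (444 and 108 CPM) had the opposite order to members. The part of all these marker genes in the ratios above was not tested.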

How the data were processed

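The unfiltered matrices hold deposited UMI counts per gene and barcode. Their headers name Cell Ranger 7.1.0 as the software the authors ran, and mm10 comes from the submitters' processing notes; how introns were counted is not given in the sources used here. Cells and populations were gated by summed marker UMIs, without clustering, for interstitial stromal cells, pericytes, Sertoli, Leydig and germ cells. The stromal gate required, among other limits, a sum of Pdgfra, Dcn and Tcf21 of at least 5 per 10000 UMIs. Counts were summed over members, scaled per 1000000, and compared as log2 of (count + 0.5) over (total + 1), knockout over control, for genes with at least 30 UMIs in both libraries together. Intervals are exact (Clopper-Pearson for shares, Poisson for levels, conditional for ratios) at 95%. Those of ratios were checked on simulated Poisson counts, the model they assume. UMIs of a gene that gather in few cells were not part of that check. Shares were also computed after thinning cells to 2000 UMIs. Members and gene lists were chosen with earlier results of these data known. Named genes were the gate genes, Psma7, Cnn1, Myocd, the 3 highest and 3 lowest measured of each list, the 12 highest and 12 lowest ratios over all genes, and the 15 highest and 10 lowest against stroma; any other gene named in a list was chosen after its values were seen. Promoters came from RefSeq GRCm38.p6. Python 3.11.15, numpy 2.4.6, scipy 1.17.1, pandas 2.3.3 and scanpy 1.11.5 were used. Depth totals were 112746953 UMIs in the knockout and 146528736 in the control library. Alternatives varied the cell minimums, the mitochondrial limit, the gate sum, the pericyte limit, the UMI minimum per gene, the centring of ratios, subtraction of free RNA, pooling, the depth of cells, the thinning depth, and the dividing, endothelial or macrophage-gated members and cells marked by Scrublet; 1 more, weighting control members to the knockout gate sums, was added after the data were seen. Values of some list members are not reported here.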

Additional observations from a re-analysis of the deposited data

Results flagged for a closer look

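Among the named genes, list members and markers, gate genes left out, 20 were past 1.5-fold in members and had the opposite sign in interstitial stromal cells, with 95% counting intervals that exclude 0 in both populations. With 1 library a genotype, the difference was not tested. Some of these genes were named for their extreme ratios in members, and the share over all measured genes is not given here. The count of 20 is therefore a description. All values are log2 ratios, knockout over control, in members and then in stromal cells. Channels and receptors were Ano3 (1.82 and -1.58), Ryr2 (0.78 and -0.44) and Avpr1a (1.51 and -0.41). Basement membrane genes were Fras1 (1.44 and -0.43) and Col18a1 (0.70 and -0.26). Matrix genes were Loxl2 (1.01 and -0.68), Col14a1 (0.92 and -0.36) and Ogn (0.66 and -0.14). The hedgehog decoy Hhip had -0.79 and 0.24. Division genes were Ccnb1 (-0.98 and 0.48), Cdc20 (-0.88 and 0.21), Cenpf (-0.86 and 0.54), Aurka (-0.65 and 0.69), Ube2c (-0.59 and 0.53) and Gins2 (-0.64 and 0.59). Sapcd1 had -1.31 and 0.20, and the endothelial marker Cdh5 had 0.60 and -0.071. The haemoglobin gene Hbb-bs (-4.67 and 1.19) had 99.3% of its control member UMIs in 1 cell. The chemokines Ccl2 (-2.95 and 0.73) and Cxcl2 (-2.79 and 2.93) rested on few cells, with 85.5% and 93.3% of their control member UMIs in 1 cell. Cxcl2 in members turned to 0.81 at a gate sum of at least 20 and to 1.05 without members that passed the endothelial or macrophage gate, the same sign as in stromal cells.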

How the results depend on the processing

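No paired analysis was possible because each genotype had 1 library. Of 68 genes past 1.5-fold that were followed over the alternatives, 49 stayed past it with their direction under every alternative run, and 4 of 1190 alternative values, in 2 genes, changed sign: Cxcl2 (0.81 and 1.05) and Plau (0.81 and 0.69) with a gate sum of at least 20 and with members that passed the endothelial or macrophage gate left out. At a mitochondrial limit of 10% members were 9.27% and 8.93% of knockout and control cells, with a log2 ratio per Sertoli cell of -0.83. Knockout members were 5.53% of cells at a gate sum of at least 20 and 5.55% with fewer than 2 pericyte genes, and Cnn1 was found in 11.9% of knockout members at a gate sum of at least 5. Without thinning, Cnn1 was found in 32.6% and 55.5% and Myocd in 64.9% and 58.0% of knockout and control members, and dividing members were 19.4% and 17%, against 3.96% and 4.02% when thinned to 1000 UMIs. Genes at least 1.5-fold higher and lower numbered 349 and 366 with at least 100 UMIs per gene, and 1260 and 1497 with at least 10. Against pericytes, genes at least 2-fold higher and lower in members numbered 536 and 533 with at least 100 UMIs per gene, and 530 and 379 among cells of 3000 to 10000 UMIs; fewer genes and cells entered these counts. The limits of 1 library a genotype, and of 43 and 64 pericytes in knockout and control, apply throughout.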
